A study of Mus musculus with 37 samples.

Results

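The cell cycle and DNA replication genes described here are 42 genes fixed by their Ensembl identifiers and found in the deposited table by matching the identifier before the dot. They cover mitosis (22 genes, among them MKI67, TOP2A and CDK1), DNA replication and its supply of nucleotides (12 genes, PCNA to HELLS), chromatin and tubulin (STMN1, HMGB2, H2AZ1 and TUBA1B) and 4 further genes. Of the 42, 14 had a mean of at least 5 counts over the 37 libraries and are described gene by gene, out of 60708 identifiers in the table, of which 5193 passed the filter on low counts and were tested. All 14 were among those tested. The table pairs no identifier with a gene name, so the names used here are those given in the definition of the gene group, and 13 of the 14 have one. ENSG00000137807, which sits in the mitotic stretch of the list, is given by its identifier.

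Wild-type FVB mice gave the splenocytes, which spent 48 h with RAW264.7 (a macrophage-like cell line of the mouse) or with medium taken from that line. The RAW cells had been kept for 72 h at 1% oxygen (hypoxia) or 21% oxygen (normoxia), with or without SPP1 (osteopontin, a secreted ligand of integrins and CD44) at 1 µg/mL. Splenocytes received the RAW cell medium (medium, 11 libraries), the RAW cells (cells, 12 libraries) or the RAW cells after a wash (washed, 12 libraries), and 2 further libraries are labelled naive with no statement of whether those cells were cultured. With both oxygen levels and both SPP1 states in each mode this gives 13 groups, of 3 libraries each except medium with normoxia and no SPP1 (2 libraries, replicates 2 and 3) and naive (2 libraries). All splenocytes were wild type, and Brefeldin A was added at the end of the exposure. The smallest library held 631574 counts, the largest 1337314 and the middle one 1063211. Since the reference used for these mouse reads was human, each value counts mouse reads that fell on a human gene. Reads of a mouse transcript that diverges from the human one may be missing, and those of TUBA1B and H2AZ1, which have close relatives, and of TYMS, which overlaps an antisense gene, are uncertain in their origin. Marker genes could not be looked up without names, so the labelled cell type was not checked and the share of RAW cell RNA in the co-culture libraries was not tested.

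A cell that divides first copies its DNA and then separates the copies. MCM proteins form the helicase that unwinds DNA ahead of the polymerases, PCNA is the clamp that holds the polymerases on DNA, and RRM1 and TYMS supply deoxyribonucleotides. TOP2A untangles sister DNA before division, and HMGB2 and H2AZ1 are chromatin proteins abundant in dividing cells. Resting lymphocytes, the main cells of a spleen, hold most of these transcripts low and raise them when they are activated and enter the cell cycle.

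The upstream sequence of 4 of these genes is shown because many cell cycle promoters carry the letters CCAAT, bound by NF-Y, the letters of E2F sites, or the TTTGAA of the cell cycle homology region (CHR). They are the 250 bases before the annotated start of the mouse gene, from RefSeq on GRCm38.p6, written 5′ to 3′ on the strand of the gene, with capitals for CCAAT, for TTTCCCGC, TTTGGCGC, TTTCGCGC or TTTGCCGC (E2F) and for TTTGAA, each on either strand, so that overlapping matches join. Top2a and Hmgb2 carry CCAAT and CHR letters, Mcm6 carries E2F letters, and Tyms carries none of these letters in this window. TYMS differed most between cells and medium, but it and MCM6 reached a mean of 5 counts only through the medium libraries. Top2a lies at chr11:99024190-99024439 (minus strand), Hmgb2 at chr8:57511593-57511842 (plus strand), Mcm6 at chr1:128359706-128359955 (minus strand) and Tyms at chr5:30073626-30073875 (minus strand).
Top2a: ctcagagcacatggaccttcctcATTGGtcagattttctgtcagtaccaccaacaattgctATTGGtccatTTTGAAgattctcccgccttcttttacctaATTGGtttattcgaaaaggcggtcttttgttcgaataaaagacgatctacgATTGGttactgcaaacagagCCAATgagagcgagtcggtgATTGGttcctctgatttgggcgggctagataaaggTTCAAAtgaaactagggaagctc
Hmgb2: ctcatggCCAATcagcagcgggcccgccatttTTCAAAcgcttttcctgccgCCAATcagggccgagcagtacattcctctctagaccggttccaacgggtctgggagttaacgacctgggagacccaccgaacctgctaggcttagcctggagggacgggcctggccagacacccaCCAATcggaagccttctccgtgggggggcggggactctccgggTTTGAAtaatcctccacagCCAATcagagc
Mcm6: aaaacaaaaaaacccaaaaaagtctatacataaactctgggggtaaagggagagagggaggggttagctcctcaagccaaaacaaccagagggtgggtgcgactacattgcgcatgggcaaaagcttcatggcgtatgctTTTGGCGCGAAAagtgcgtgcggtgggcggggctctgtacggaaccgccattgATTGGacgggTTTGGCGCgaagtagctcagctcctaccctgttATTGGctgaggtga
Tyms: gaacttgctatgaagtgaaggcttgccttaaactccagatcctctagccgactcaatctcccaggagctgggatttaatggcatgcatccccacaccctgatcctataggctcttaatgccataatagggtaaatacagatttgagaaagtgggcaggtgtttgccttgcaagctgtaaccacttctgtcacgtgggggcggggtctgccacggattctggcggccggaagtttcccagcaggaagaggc

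Of the 13 named genes, 11 were matched in the promoter table, with 12 windows because Mcm7 has 2. CCAAT was present in 9 of 12 windows (75.0%) against 33.8% of all 32851 windows of the same length. An E2F sequence was present in 3 of 12 (25%) against 1.86% of all, and TTTGAA in 2 of 12 (16.7%) against 16% of all. The Top2a window holds 6 matches to CCAAT and 2 to TTTGAA, the Hmgb2 window 4 and 2, and the Mcm6 window 2 matches to CCAAT and 3 to the E2F letters. These matches describe letters and not binding.

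Mitotic genes were poorly covered: 2 of the 22 reached a mean of 5 counts, against 8 of 12 replication genes and 4 of 4 chromatin and tubulin genes, and none of the 4 further genes. MKI67 (ENSG00000148773) had 0 counts in all libraries, as had 4 other of the 42 genes. CDK1 (ENSG00000170312) had 146 counts in total, MCM5 (ENSG00000100297) 133, RRM2 (ENSG00000171848) 133, MCM2 (ENSG00000073111) 17 and UHRF1 (ENSG00000276043) 5. Of the 146 CDK1 counts, 105 were in medium libraries, 21 in cells, 20 in washed and 0 in naive libraries. RRM2, the small subunit of ribonucleotide reductase, had 108 of its 133 counts in medium libraries. MCM5 had 80 of its 133 counts there, MCM2 8 of 17 and UHRF1 0 of 5. The 28 genes under the limit summed to 80.4 ± 27.7 CPM (TMM-scaled counts per 1000000 counts, mean ± SD, n = 11) in medium, 18 ± 11.9 (n = 12) in cells, 22.1 ± 9.14 (n = 12) in washed and 6.67 ± 5.30 (n = 2) in naive libraries, which is given with no test. Among the 14 genes kept, ENSG00000137807, PCNA, MCM6 and TYMS reached the mean of 5 only through the medium libraries, with means of 1.69, 3.15, 4.46 and 4.58 counts over the other 26. They were kept because they are high in medium, so their differences from medium follow in part from that choice and support nothing, the 13-group test included.

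Libraries that stood apart bear on several values. In a principal component analysis of all tested genes (the first component held 33.2% and the second 12.3% of the variance), 2 medium libraries, both without SPP1, lay away from the rest towards the co-cultures, namely replicate 1 of hypoxia and replicate 3 of normoxia. At 11 of the 14 genes the former was the lowest of the 11 medium libraries, and at all 14 it lay within the range of the co-culture libraries. The latter was the lowest at 0 genes and within that range at 7. Low on the second component were 1 cells library (hypoxia, no SPP1, replicate 2) and 3 washed ones (normoxia with SPP1, replicates 1 and 2, and hypoxia with SPP1, replicate 1). All 3 of these washed libraries are SPP1 libraries.

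The 14 genes were together highest in splenocytes given RAW cell medium. Their summed level was 10270 ± 2610 CPM (SD, n = 11) in medium, 5319 ± 639 (n = 12) in cells, 5068 ± 1320 (n = 12) in washed and 5031 ± 253 (n = 2) in naive libraries. H2AZ1 (ENSG00000164032), the histone H2A variant, made up 75.9% to 92.1% of this sum in single libraries. Without it the other 13 summed to 1864 ± 471 CPM in medium, 603 ± 123 in cells, 827 ± 143 in washed and 520 ± 194 in naive libraries. STMN1 and HMGB2 made up most of this sum. Their means were 894 and 438 CPM in medium and 229.5 and 164 CPM in cells libraries. In washed libraries they were 256 and 287 CPM, and in naive libraries 239 and 117 CPM. By the sum of the 13 genes, the lowest medium library, at 673.7 CPM, lay inside the washed range of 588 to 1026. It also lay inside the cells range of 434 to 804, and the other 10 medium libraries lay above both. The medium group with hypoxia and SPP1 had the highest mean sum of the 13, at 2231 ± 150 CPM (n = 3), and cells with normoxia and no SPP1 had the lowest of the exposed groups, at 498 ± 55.5 CPM (n = 3). The sum is a description with no test. In bulk RNA, fewer dividing cells, less of these transcripts per cell and RAW cell RNA in the co-culture libraries cannot be told apart.

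**Figure D1:**
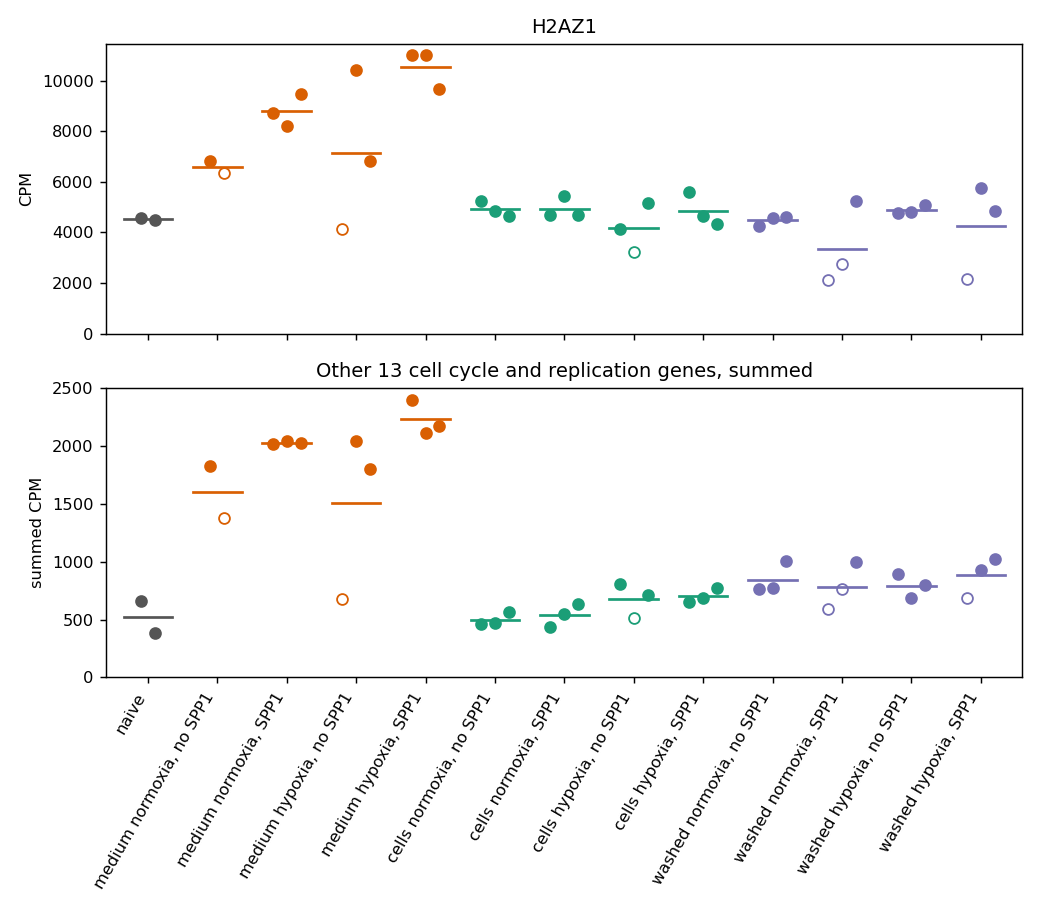
Each point is 1 library, in TMM-scaled CPM, for H2AZ1 (top) and for the sum of the other 13 genes (bottom) in the 13 groups. Lines are group means and open points are the 6 libraries that stood apart. STMN1 and HMGB2 make up most of the sum in the bottom panel. Medium libraries reach 10980 CPM of H2AZ1, and no cells or washed library exceeds 5759 CPM.

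The same order held at matched oxygen and SPP1. The sum without H2AZ1 was 3.78 times as high in medium as in cells with normoxia and SPP1, 3.22 times with normoxia and no SPP1, 3.18 times with hypoxia and SPP1, and 2.22 times with hypoxia and no SPP1, the condition that holds medium replicate 1. Against washed, the ratios were 2.58, 1.89, 2.53 and 1.90 in the same order. In each of these 8 pairs of groups 13 or 14 of the 14 genes had the higher mean in medium. That count includes the 4 genes kept through medium, and its share over all genes tested was not computed.

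In a test of any difference among the 13 groups, 10 of the 14 genes passed, against 53.6% of all 5193 genes tested (edgeR quasi-likelihood test, Benjamini-Hochberg adjusted p under 0.05). TYMS (ENSG00000176890; adjusted p = 3.5e-08) and STMN1 (ENSG00000117632; 9.04e-08) had the smallest p. TYMS and ENSG00000137807, which also passed, are among the 4 genes kept through medium, so their passing supports nothing. MCM4 (ENSG00000104738; 0.349), MCM6 (ENSG00000076003; 0.159), MCM7 (ENSG00000166508; 0.142) and PCNA (ENSG00000132646; 0.0594) did not pass.

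**Figure D2:**
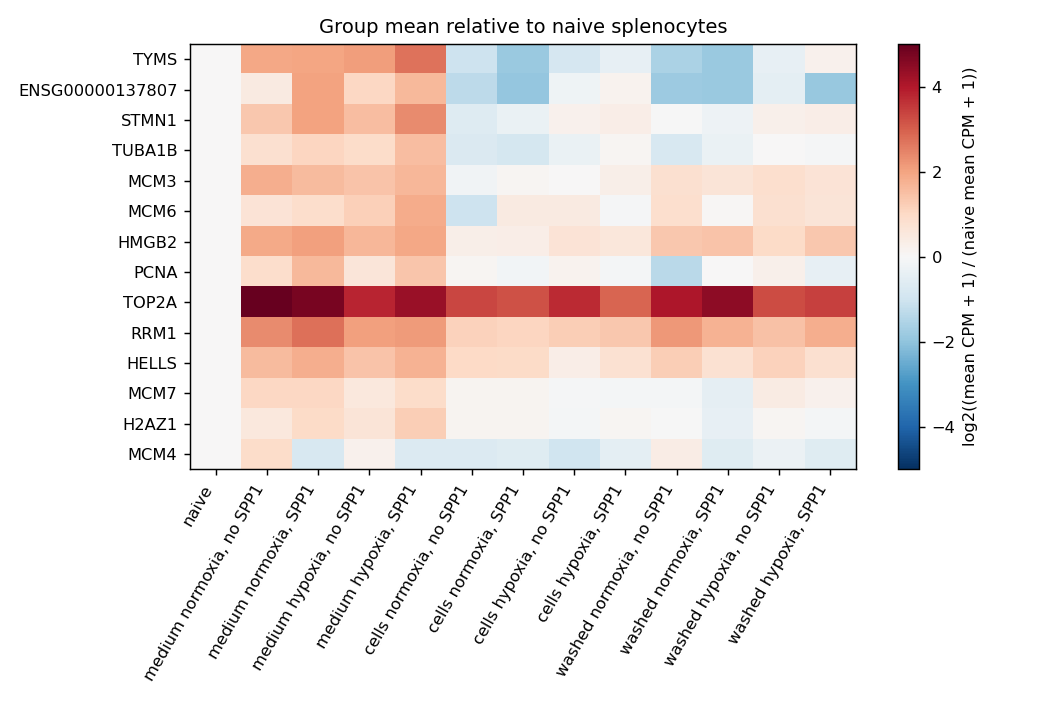
Colour gives the log2 ratio of a group's mean CPM plus 1 to the naive mean plus 1, for 14 genes (rows) and 13 groups (columns). TOP2A is above naive in all 12 exposed groups, and the 4 medium columns are red for most genes.

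The first question was how splenocytes exposed to RAW cells differed from those given RAW cell medium. Of the 14 genes, 13 were lower in cells than in medium libraries, where 25.3% of all genes tested were lower (edgeR quasi-likelihood test). The median log2 difference was -1.36 over the 14 genes and -0.02 over all tested. Of the 10 genes that reached a mean of 5 counts outside medium 9 were lower, with a median of -1.19, and the 4 kept through medium were all among the 13. MCM4, a helicase subunit, was the exception, with a log2 difference of -0.65 ± 0.391 (SE) and an adjusted p of 0.173.

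TYMS, the thymidylate synthase that makes the thymidine nucleotide, had the largest difference and is 1 of the 4 genes kept through medium. It ran from 8.48 to 63.8 CPM (median 48.5) in medium libraries and from 0 to 7.38 CPM (median 3.98) in cells libraries. The 2 ranges did not overlap, which was so at 1 of 14 genes and at 2.02% of all genes tested in this direction. That 1 gene is TYMS itself, kept through medium, so the count supports nothing. The fold change was -3.53 ± 0.365 on the log2 scale, 11.6-fold lower (adjusted p = 9.07e-10, edgeR). TYMS counts in cells libraries were 0 to 9, so its level there is known only coarsely.

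ENSG00000137807, likewise kept through medium, ran from 0.771 to 26.9 CPM (median 12.2) in medium and from 0 to 8.20 CPM (median 0.907) in cells libraries. The log2 difference was -2.79 ± 0.502 (adjusted p = 2.11e-05, edgeR), and the ranges overlapped. STMN1, the tubulin-binding protein stathmin, ran from 316 to 1320 CPM (median 950) in medium and from 133 to 363 CPM (median 217) in cells libraries. Only medium hypoxia no-SPP1 replicate 1 lay inside the cells range. The log2 difference of STMN1 was -1.92 ± 0.211 (3.79-fold lower, adjusted p = 3.56e-09, edgeR).

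MCM3 (ENSG00000112118), another helicase subunit, ran from 40.1 to 148 CPM (median 107) in medium and from 18.1 to 46.4 CPM (median 36.1) in cells libraries. Its log2 difference was -1.59 ± 0.188 (adjusted p = 1.68e-08, edgeR). TUBA1B (ENSG00000123416), an alpha tubulin, averaged 66.9 CPM in medium and 22.1 CPM in cells libraries and differed by as much (-1.59 ± 0.181). HMGB2 (ENSG00000164104), a chromatin-bending protein, averaged 438 ± 134 CPM in medium and 164 ± 28.4 CPM in cells libraries, 2.67-fold lower. H2AZ1 averaged 8409 ± 2180 CPM in medium and 4716 ± 641 CPM in cells libraries, 1.72-fold lower. Among the other genes that fell, RRM1 (ENSG00000167325), TOP2A (ENSG00000131747), PCNA and MCM6 had log2 differences of -1.15, -1.24, -1.29 and -1.47, and MCM7 and HELLS (ENSG00000119969), a chromatin remodeller, of -0.87 and -0.91. Without the 6 libraries that stood apart, 13 of the 14 genes were lower.

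**Figure D3:**
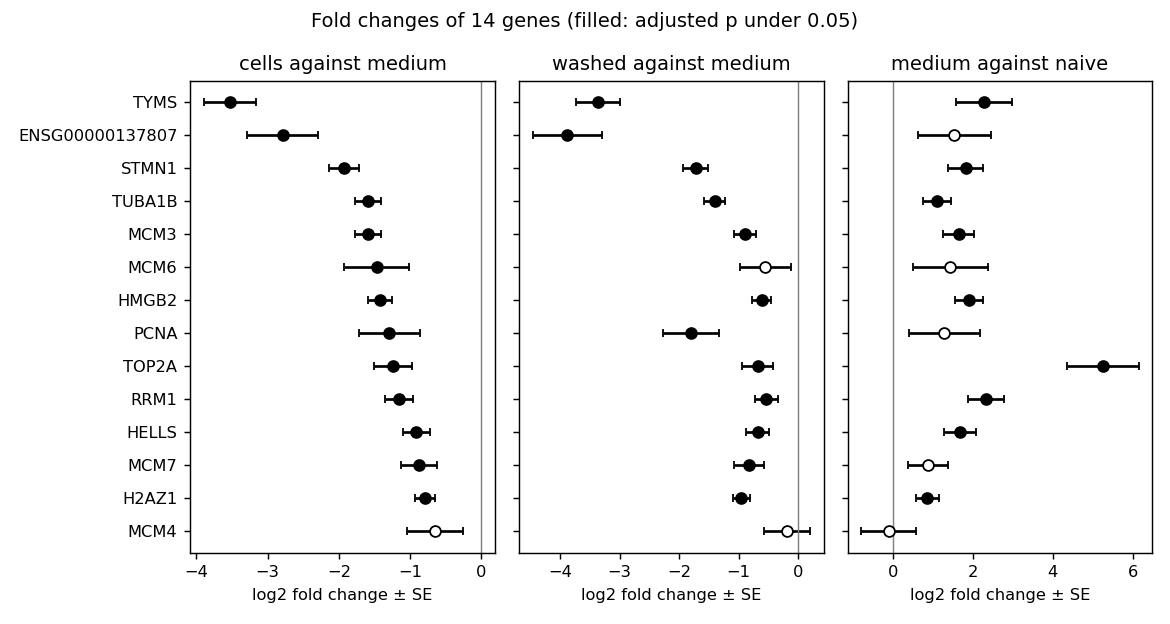
Points are log2 fold changes with standard errors from edgeR for the 14 genes in cells against medium, washed against medium and medium against naive; filled points have an adjusted p under 0.05. In cells against medium 13 points are filled, in washed against medium 12 and in medium against naive 9.

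After the wash the contrast with medium was similar in count, and it uses the same medium libraries, so the 2 comparisons are not independent. Of the 14 genes, 12 were lower in washed than in medium libraries, against 30.2% of all genes tested. The median log2 difference was -0.86 over the 14 genes and -0.03 over all tested. Of the 10 genes that reached a mean of 5 counts outside medium 9 were lower, with a median of -0.76. MCM4 (-0.19 ± 0.389, adjusted p = 0.697, edgeR) and MCM6 (-0.55 ± 0.426, adjusted p = 0.27) did not pass.

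TYMS ran from 0 to 14.5 CPM (median 4.57) in washed libraries, below the medium range except where washed libraries passed the lowest medium library at 8.48 CPM. Its log2 difference from medium was -3.36 ± 0.373 (adjusted p = 2.29e-09, edgeR), and -4.38 without washed normoxia SPP1 replicate 3. ENSG00000137807 had 0 to 4 counts in washed libraries and differed by -3.88 ± 0.580 log2 units (adjusted p = 6.42e-07), and it is 1 of the genes kept because medium is high. PCNA, with a mean of 2.59 CPM in washed and 8.82 CPM in medium libraries, differed by -1.80 ± 0.468 log2 units (adjusted p = 0.00124), by -3.07 without washed normoxia SPP1 replicate 3, its highest washed library, and by -2.49 without washed normoxia no-SPP1 replicate 1.

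STMN1 ran from 98.2 to 440 CPM (median 250) in washed libraries, 3.30-fold below medium (log2 difference -1.72 ± 0.210, adjusted p = 1.55e-08, edgeR). H2AZ1 averaged 4242 ± 1220 CPM, 1.93-fold below medium (-0.95 ± 0.144). TUBA1B differed by -1.40, MCM3 by -0.89, MCM7 by -0.83, HELLS and TOP2A by -0.68, HMGB2 by -0.61 and RRM1 by -0.53 log2 units.

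The 3 washed libraries that stood apart were the lowest in H2AZ1, at 2100 to 2740 CPM against 4250 to 5760 CPM in the other 9, and in STMN1, at 98.2 to 141 against 209 to 440 CPM, and in HELLS, at 20.9 to 24.8 against 25.3 to 40.4 CPM. HMGB2 was not lower there, at 308 to 420 against 219 to 361 CPM. Across the 14 genes their mean was lower than that of the other 9 for 12 and higher for 2. Without the 6 libraries that stood apart 12 of the 14 genes were lower in washed than in medium libraries, and without the 4 low on the second component alone 10 were, TOP2A and RRM1 being lost.

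**Figure D4:**
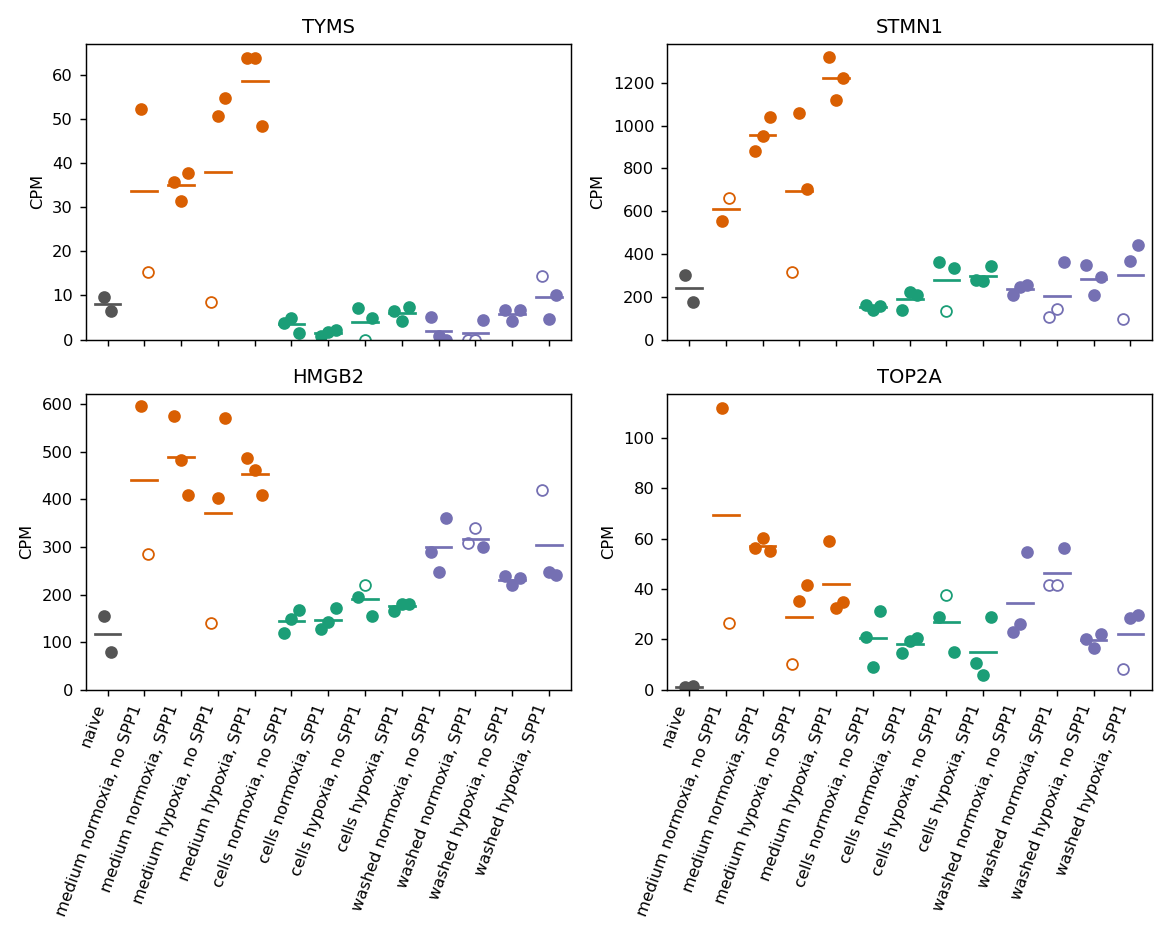
Each point is 1 library in CPM for TYMS, STMN1, HMGB2 and TOP2A in the 13 groups, with group means as lines and open points for the 6 libraries that stood apart. TYMS is at or under 14.5 CPM in all co-culture libraries, while washed HMGB2 (219 to 420 CPM) lies between cells and most medium libraries.

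Between the co-culture modes, 3 of the 14 genes were higher in washed than in cells libraries, against 4.16% of all genes tested. HMGB2 ran from 219 to 420 CPM (median 269) in washed and from 119 to 220 CPM (median 167) in cells libraries, so that the ranges met only at 219 to 220 CPM. Its log2 difference was 0.80 ± 0.161 (adjusted p = 0.00294, edgeR). MCM3 averaged 55.6 ± 13.2 and 34.5 ± 9.91 CPM (log2 difference 0.70 ± 0.187, adjusted p = 0.0187). RRM1, the large subunit of ribonucleotide reductase, averaged 86.0 ± 30.8 and 55.7 ± 12.4 CPM (0.61 ± 0.195, adjusted p = 0.0474), a call lost when 20 of the 24 libraries were left out singly. For TYMS the difference was 0.17 with a 95% interval of -0.79 to 1.13, and for H2AZ1 it was -0.16 with an interval of -0.45 to 0.12. Without the 6 libraries that stood apart 5 genes were higher (TOP2A, MCM3, RRM1, STMN1 and HMGB2, named after their values were seen).

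Naive splenocytes gave the reference level. In medium libraries 9 of the 14 genes were higher than in naive libraries, against 17.1% of all genes tested, and the median log2 difference was 1.59 over the 14 genes and 0.11 over all tested. Of the 10 that reached a mean of 5 counts outside medium 8 were higher, with a median of 1.65. The 5 genes that did not pass were ENSG00000137807, PCNA, MCM4, MCM6 and MCM7. At 5 of the 14 genes every medium library lay above both naive libraries, against 15.3% of all genes tested. These 5 were TOP2A, PCNA, MCM3, RRM1 and STMN1. PCNA was kept through medium, so its place among them supports nothing.

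TOP2A, the topoisomerase that decatenates sister DNA, had 1 count in each naive library and 13 to 168 counts in medium libraries (10.0 to 112 CPM). The ratio of its summed counts to naive was 43.4 (95% counting interval 12 to 359) in medium, 27.9 (7.67 to 231) in washed and 17.7 (4.84 to 147) in cells libraries, covering counting error only. Its adjusted p was 2.93e-05 in medium, 0.000189 in washed and 0.00114 in cells libraries against naive (edgeR). No exposed library was as low as the naive ones.

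RRM1 measured 37.1 and 10.4 CPM in the naive libraries and 46.2 to 185 CPM (median 124) in medium libraries, a log2 difference of 2.33 ± 0.449 (adjusted p = 0.000141, edgeR). HMGB2 measured 155 and 79.5 CPM in naive and 141 to 596 CPM (median 462) in medium libraries (1.89 ± 0.350, adjusted p = 8.51e-05). TYMS measured 9.76 and 6.51 CPM in naive libraries and was higher in medium by 2.27 ± 0.701 (adjusted p = 0.0123, edgeR). TYMS was kept through medium, so this difference supports nothing. STMN1, HELLS, MCM3, TUBA1B and H2AZ1 were higher by 1.81, 1.67, 1.64, 1.10 and 0.85 log2 units. Naive replicate 2 was the smallest of the 37 libraries, at 631574 counts, and its RRM1 value rests on 8 counts. The 2 naive libraries differ from each other. With either left out fewer of the 14 genes passed, the lone naive library being assumed to vary like the other groups. The share over all genes was not computed for these fits. Without naive replicate 2 the log2 difference was 1.72 for RRM1 and 1.48 for HMGB2. Without naive replicate 1 it was 3.55 for RRM1 and 2.46 for HMGB2.

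In co-cultures most of the 14 genes did not differ from naive beyond the spread between libraries. In cells libraries TOP2A and RRM1 were higher (2 of 14, a count near the 13.9% of all genes tested), and the median log2 difference of the 14 was 0.00. RRM1 was higher by 1.18 ± 0.425 (adjusted p = 0.0339, edgeR), and by 2.40 without naive replicate 1. Its call was lost without naive replicate 2 (0.58, adjusted p = 0.527) and with a replicate block (1.08, adjusted p = 0.0585). TOP2A was the 1 gene of the 14 at which every cells library lay above both naive libraries, a lower share than the 14.4% of all. In washed libraries TOP2A, RRM1 (1.80 ± 0.436, adjusted p = 0.00152, edgeR) and HMGB2 (1.27 ± 0.334, adjusted p = 0.00313, edgeR) were higher. These are 3 of 14, a count near the 17.5% of all genes tested, and the median was 0.07. Without naive replicate 2 the washed call held for TOP2A alone. The ranges did not overlap at 4 genes (TOP2A, RRM1, HMGB2 and HELLS), against 13.2% of all. H2AZ1 measured 4550 and 4470 CPM in the naive libraries, and its log2 difference from naive was 0.06 (95% interval -0.47 to 0.59) in cells and -0.10 (-0.63 to 0.42) in washed libraries. These 3 comparisons with naive share the same 2 naive libraries.

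The next question was whether SPP1 in the RAW culture changed these genes. None of the 14 passed in any mode (edgeR quasi-likelihood test), against 0.25% of all genes tested in medium, 0.0% in cells and 0.0193% in washed libraries. At an unadjusted p under 0.05 there were 4 of the 14 genes in medium, 0 in cells and 0 in washed. Over all 5193 genes tested there were 478, 87 and 527 in the same order. DESeq2 called 0 of the 14 in each mode. In medium, 13 of the 14 differences were above 0, with a median of 0.31 log2 units against -0.02 over all genes tested. The share of differences above 0 over all genes was not computed. The sum without H2AZ1 was 2130 ± 146 CPM (n = 6) with SPP1 and 1544 ± 542 CPM (n = 5) without, and both medium libraries that stood apart have no SPP1. Of these, hypoxia replicate 1 was the lowest medium library at 11 of the 14 genes.

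STMN1 averaged 1090 CPM with SPP1 in medium and differed from no SPP1 by 0.73 log2 units (95% interval 0.12 to 1.35, adjusted p = 0.457, edgeR). H2AZ1 averaged 9661 CPM with SPP1 and differed by 0.49 (0.06 to 0.92, adjusted p = 0.47). MCM4 went the other way, with -1.41 ± 0.541 (adjusted p = 0.42), and 1 library (medium normoxia no-SPP1 replicate 2, 42.1 CPM) stood above the rest, without which the difference was -0.57. In cells the median over the 14 genes was 0.06 and TOP2A had the smallest p (-0.51 ± 0.388, adjusted p = 1, edgeR). In washed it was -0.10, and H2AZ1 had the smallest p (-0.30 ± 0.198, adjusted p = 0.63). For H2AZ1 the washed difference was 0.18 without the 4 libraries low on the second component.

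Hypoxia in the RAW culture gave no call among the 14 genes either, against 0.077% of all genes tested in medium, 3.62% in cells and 0.0385% in washed libraries. At an unadjusted p under 0.05 there were 1, 3 and 3 of the 14 in medium, cells and washed libraries. Over all 5193 genes tested there were 382, 928 and 426 in the same order. DESeq2 called 0 of the 14 in medium and washed and 1 in cells (ENSG00000137807, adjusted p = 0.0496). In cells the median was 0.18 log2 units, against 0.05 over all genes tested. There 10 of the 14 differences were above 0, a share not computed over all genes. ENSG00000137807 measured 0 to 2.00 CPM in cells libraries of normoxia and 0.828 to 8.20 CPM in those of hypoxia (2.59 ± 0.860, adjusted p = 0.087, edgeR), and 3.43 without cells normoxia SPP1 replicate 3. STMN1 passed when all genes with a count or only the cells libraries were fitted, and without the 4 libraries low on the second component. TUBA1B (0.72, 95% interval 0.19 to 1.26, adjusted p = 0.12) and STMN1 (0.76, 0.17 to 1.34, adjusted p = 0.146) had intervals above 0. Without all 6 libraries that stood apart both passed. The sum without H2AZ1 was 689 ± 101 CPM (n = 6) in hypoxia and 517 ± 74.7 CPM (n = 6) in normoxia cells libraries.

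In washed libraries TYMS had the smallest p of the hypoxia comparison, with 4.17 to 14.5 CPM in hypoxia and 0 to 5.18 CPM in normoxia libraries (1.88 ± 0.643, adjusted p = 0.447, edgeR). That difference was 3.92 without washed normoxia SPP1 replicate 3 (adjusted p = 0.0631), 2.79 without washed normoxia no-SPP1 replicate 1 and 1.10 without the 4 libraries low on the second component. The TOP2A hypoxia difference was -0.91 (95% interval -1.68 to -0.14, adjusted p = 0.508) in washed and -0.85 (adjusted p = 0.611) in medium libraries. Leaving out replicate 2 of medium normoxia no-SPP1 took the medium value to -0.19. The hypoxia effect did not differ beyond its error between cells and washed (0 of 14, against 0.173% of all genes tested). Nor did it between cells and medium (0 of 14, against 0.481%). At an unadjusted p under 0.05 there were 366 of all 5193 genes for the former and 436 for the latter. Of the 14 there were 0 and 1. That 1 gene was ENSG00000137807, whose effect was 2.48 ± 1.02 log2 units larger in cells than in medium (adjusted p = 0.452, edgeR).

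**Figure D5:**
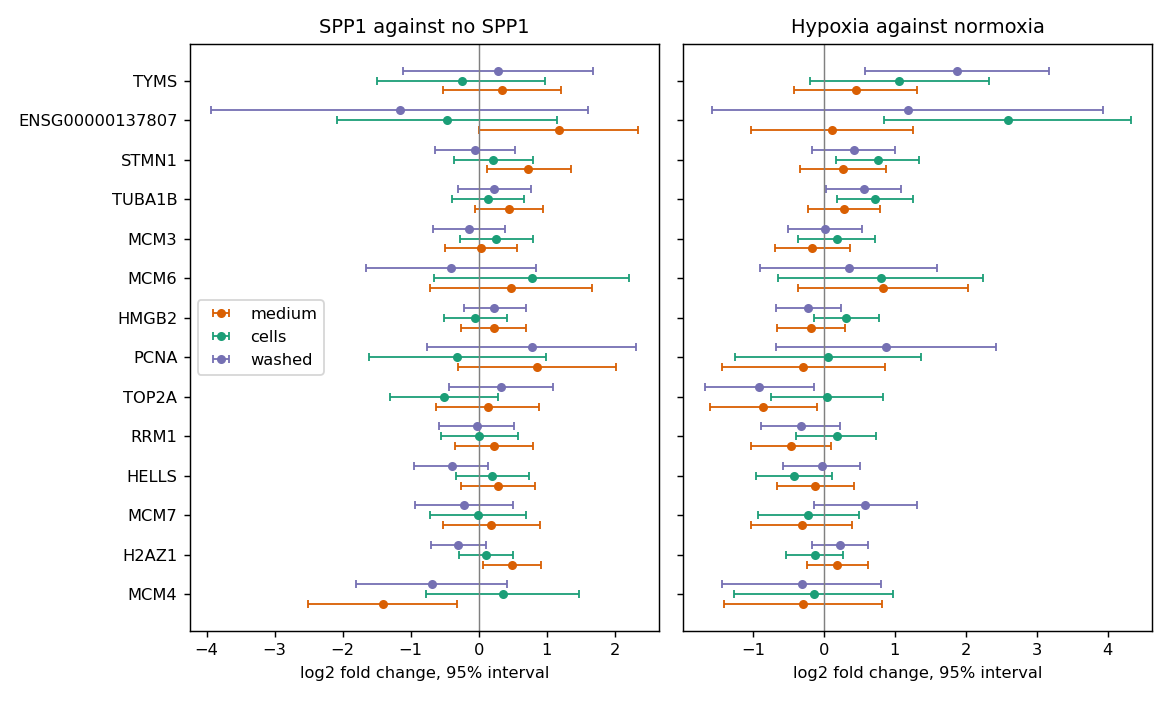
Points are log2 fold changes with 95% intervals for SPP1 against no SPP1 (left) and hypoxia against normoxia (right) of the RAW culture, in medium, cells and washed libraries. None has an adjusted p under 0.05, and the widest intervals belong to ENSG00000137807, with a mean of 0.832 CPM in washed libraries.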

How the data were processed

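Libraries of 37 mouse splenocyte samples were prepared with a QuantSeq 3′ kit. According to the series text, bbduk trimmed the reads, STAR 2.7.10b placed them on GRCh38, and featureCounts (Rsubread 2.0.3) made the counts. The authors deposited raw counts; whether the molecular identifiers of the kit entered the counting is not given in the sources used here. The stated RNA integrity limit is at odds with the range quoted beside it, and no value per library was used.

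Counts were analysed with R 4.3.3 and edgeR 4.0.16 (DESeq2 1.42.0 as an alternative). Genes were kept by filterByExpr (minimum count 10), libraries were scaled by TMM, and a quasi-likelihood model with 1 mean per group was fitted to all 37 libraries. P-values were Benjamini-Hochberg adjusted over the 5193 genes tested, and a gene passed at an adjusted p under 0.05. CPM used TMM-scaled totals, and log2 CPM a prior count of 2. Errors of log2 differences are standard errors. The text of the series mentions independent repeats, but no label ties a library to an animal or culture, so p-values measure the spread between these samples. In none of 35 replicate pairs did the counts agree within sampling noise. The pipeline was tested on simulated data.

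The genes and lists were chosen with earlier results of these data known. Genes were named by a rule: the 8 with the highest mean CPM, up to 4 per direction and comparison with the largest change among those that passed, the smallest p where none passed, and the extremes of the 13-group test. Other genes of the 14 were named with their values. A list of other cell cycle genes and marker lists of 7 cell types were not run, since no name table held the identifiers. Alternatives were RLE scaling, no count filter, DESeq2, a replicate block, the compared libraries alone, each library left out in turn and, chosen after seeing the data, 3 sets of libraries left out.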

Additional observations from a re-analysis of the deposited data

Results flagged for a closer look

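Within each mode and oxygen level (5 or 6 libraries), single libraries were compared with the rest for each of the 14 genes and 2 sums. Dixon's test at its 95% critical value marked 11 of 96 sets, and chance marks about 1 set in 20. Neither a technical nor a biological part in them was tested.

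Medium hypoxia no-SPP1 replicate 1 was marked as the lowest of 6 medium hypoxia libraries for 4 values. MCM3 was 40.1 CPM there against 107 to 118 CPM in the others, RRM1 46.2 against 104 to 137 CPM, TYMS 8.48 against 48.5 to 63.8 CPM, and the sum without H2AZ1 673.7 against 1800 to 2401 CPM.

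Washed hypoxia SPP1 replicate 1 was marked for 3 values. H2AZ1 was 2160 CPM there against 4750 to 5760 CPM in the other 5, the sum of the 14 genes 2852 against 5482 to 6691 CPM, and HMGB2 was highest at 420 against 219 to 248 CPM.

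The 4 other marks rest on low counts. MCM6 was 8.89 CPM in cells normoxia SPP1 replicate 3, with the others at 2.52 CPM or less, and 23.4 CPM in medium hypoxia SPP1 replicate 3, with the others at 6.17 to 11.8 CPM. PCNA was 0.771 CPM in cells normoxia SPP1 replicate 1, with the others at 3.00 to 4.19 CPM, and 9.99 CPM in washed normoxia SPP1 replicate 3, with the others at 2.07 CPM or less.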

How the results depend on the processing

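The counts of genes that passed in cells against medium (12 to 14), in washed against medium (10 to 12) and among the 13 groups (10 to 14) stayed within 1.5 times the reported ones under every alternative run, and the 0 counts for SPP1 in each mode, for hypoxia in medium and washed and for both differences between hypoxia effects stayed at 0. Calls against naive rest on 2 libraries, and the shares of all genes passing with single libraries left out were not computed. With single libraries left out, the count ran from 3 to 9 for medium, 1 to 2 for cells and 1 to 5 for washed libraries. The lowest counts came without naive replicate 2 and the highest for washed, 5, without naive replicate 1. TYMS in medium lost its call without either one. RRM1 against naive ran from 1.72 to 3.55 in medium, 0.58 to 2.40 in cells and 1.21 to 3.02 in washed libraries. Without all 6 libraries that stood apart, 5 genes passed in washed against naive, 5 in washed against cells and 2 for hypoxia in cells. For hypoxia in cells, 1 gene passed with every gene with a count tested, with DESeq2, with the cells libraries alone, without the 4 libraries low on the second component and without the 2 medium libraries near the co-cultures. The H2AZ1 difference for SPP1 in washed libraries turned to 0.18 without those 4 and without all 6. RLE scaling moved the median of all genes tested from 0.041 to -0.071 in cells and from 0.041 to -0.07 in washed libraries against naive, and no count changed by over 1.5 times with it. Scaling by total count gave a naive sum of 5707 CPM. MCM6 and MCM4 passed in the 13-group test without all 6 (adjusted p = 0.0259 and 0.0257, edgeR). Sets of libraries to leave out were chosen after seeing the data. The cause of these changes was not tested.

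Deviations of samples that share a replicate number had a mean correlation of 0.009 over 210 pairs, against -0.00433 over 421 pairs with different numbers, so the numbers were not taken to pair the samples. With a replicate block, 1 gene passed in cells against naive (TOP2A), 2 in washed against cells and 11 among the 13 groups, and the other counts did not change.

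At 631574 to 1337314 counts per library, genes such as PCNA, MCM6 and ENSG00000137807 rest on a few counts, and differences in them smaller than their intervals were not detectable at this depth.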
